A study of Mus musculus with 2 samples.

Results

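The 10 genes described here, Plcg2, Inpp5d, Cd33, Picalm, Bin1, Sorl1, Apoe, Abca7, Abi3 and Ptk2b, are mouse homologues of human genes at loci for Alzheimer risk, and each has a role in myeloid cells. They were chosen by symbol from the 32285 genes counted, and all 10 had unique molecular identifiers (UMIs, each marking 1 captured transcript) in both libraries. The data were 2 single-cell RNA libraries of mouse blood enriched for neutrophils by removal of other cells, 1 library from WT mice and 1 from APP/PS1 mice. The mice were female, 7 months old and untreated, and cells from 3 mice were pooled before each library was made. APP/PS1 mice carry transgenes for human amyloid precursor protein and presenilin, with the promoter and founder line not given in the sources used here, and the study's methods list C57BL/6J mice beside them. With 1 library per genotype there was no replicate, so no test was made, and every difference below is between these libraries and not shown to be one between genotypes.

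Risk variants for late-onset Alzheimer disease lie near many genes that are used by microglia and by their relatives in blood. Receptors that carry or pair with an immunoreceptor tyrosine-based activation motif (ITAM) activate the phospholipase PLCG2. The phosphatase SHIP1, encoded by Inpp5d, removes the lipid that this pathway needs. Human CD33 is an inhibitory receptor for sialic acid, and the action of mouse Cd33 was not examined here. PICALM, BIN1 and SORL1 act in endocytosis and sorting, APOE and ABCA7 in lipid transport, and ABI3 and PTK2B in actin and adhesion signalling. In blood, neutrophils, Ly6C-high classical monocytes and patrolling nonclassical monocytes use these pathways in phagocytosis and migration.

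Of 17123 WT and 17645 APP/PS1 cells, 14564 and 15208 passed the limits on genes, UMIs and mitochondrial share, with median depths of 3274 and 3086 UMIs per cell. The libraries shared 83 cell barcodes, 63 of them among kept cells. Clusters were formed without the 10 genes and named by marker genes. The largest type was neutrophils, with 5722 WT and 6863 APP/PS1 cells. Beside them stood 1916 and 2844 neutrophils that carried platelet transcripts, 1686 and 1179 classical monocytes, 824 and 626 monocytes high in MHC class II genes, and 2247 and 1337 nonclassical monocytes. The marker list of the MHC class II-high type also held dendritic cell genes, and its cluster was led by Cd209a and H2-Ab1. Dendritic cells were not told apart from monocytes in it. There were 425 and 764 NK cells, 385 and 512 T cells, 304 and 307 B cells, and 208 and 112 erythroid cells. Neutrophils, which the labels give as the cell type, made up 39.3% and 45.1% of the kept cells, without those that carried platelet transcripts. The markers fell where the names place them, for example Cd79a at 1832 and 1950.4 CPM (UMIs scaled to a total of 1000000) in B cells and Ncr1 at 676 and 751 CPM in NK cells, against at most 6.27 CPM of Cd79a and 23.8 CPM of Ncr1 in the others of these 9 types. The neutrophil marker S100a9 was found in all types, at 10059.9 CPM in WT NK cells against 96616 CPM in WT neutrophils, so values in rare types have to be read against RNA of other cells, whether free or from doublets, which were not told apart.

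Levels are UMIs of the gene summed over the cells of a type, divided by all UMIs of those cells and given as CPM, with the WT value first and APP/PS1 second. Intervals at the 95% level cover counting error only, not differences between mice. They are not divided by transcript length, so levels of different genes are not compared. Fewer cells that use a gene and less of its RNA in each cell cannot be told apart in a summed level. A log2 ratio is APP/PS1 over WT, and a gene is counted as past the fold where this ratio is beyond 0.5 in either direction with at least 100 UMIs over both libraries. The plot of levels by cell type shows all 10 genes in the 9 named types that had at least 50 cells in each library.

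**Figure D1:**
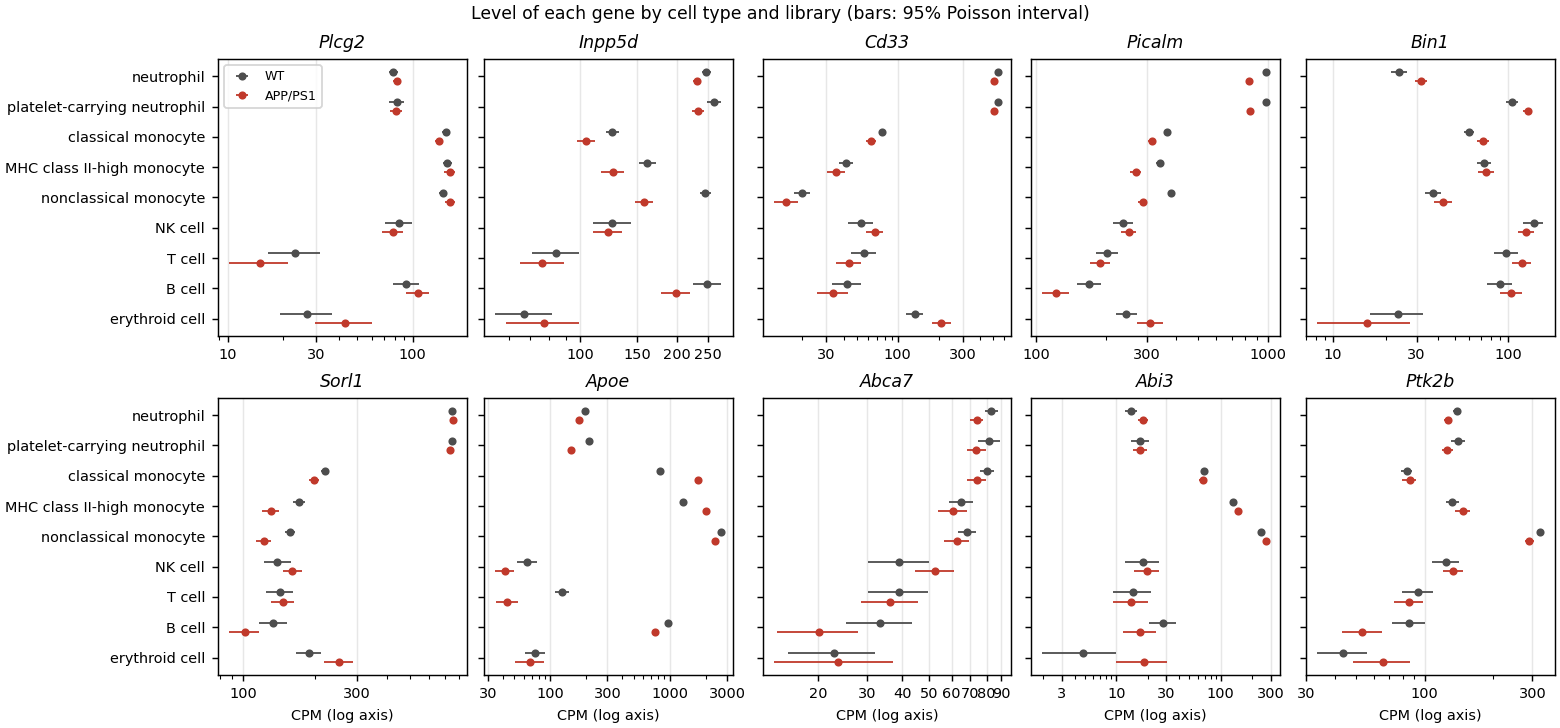
Level of each gene in CPM (log axis) in 9 blood cell types of the WT (grey) and APP/PS1 (red) libraries, with 95% Poisson intervals as bars. Picalm, Sorl1 and Cd33 stand highest in the neutrophil types, Apoe, Abi3 and Ptk2b in nonclassical monocytes, and the libraries are apart for Apoe in classical monocytes (827 and 1724 CPM) and for Inpp5d in nonclassical monocytes (245 and 158 CPM), among others.

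Cd33, Picalm and Sorl1 were highest in the neutrophil types in both libraries, by 7.06-fold and 8.02-fold over classical monocytes for Cd33, 2.69-fold and 2.63-fold for Picalm, and 3.41-fold and 3.83-fold for Sorl1. Apoe, Abi3 and Ptk2b were highest in nonclassical monocytes in both libraries. Inpp5d was also highest in a neutrophil type, platelet-carrying neutrophils, in both libraries, though B cells and, in WT, nonclassical monocytes were near. Plcg2, Bin1 and Abca7 followed neither order. For Inpp5d, Plcg2, Bin1 and Abca7 the highest and lowest types were apart by 3.04-fold to 10.7-fold in either library. Of the genes led by neutrophils, Cd33 had the widest gap between types, from neutrophils to nonclassical monocytes, 27.3-fold in WT and 33.5-fold in APP/PS1.

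Plcg2 encodes a phospholipase C that ITAM receptors switch on to release calcium. It was at 151 and 139 CPM in classical monocytes, 155 and 158 CPM in MHC class II-high monocytes and 147 and 160.2 CPM in nonclassical monocytes. In WT the counting intervals of these 3 monocyte types overlapped. In APP/PS1 nonclassical monocytes stood above classical ones by 0.20 on the log2 scale, with an interval of 0.08 to 0.33. Neutrophils had less, 78.6 and 82.1 CPM, beside 81.9 and 81.1 CPM in platelet-carrying neutrophils and 84.5 and 77.9 CPM in NK cells. B cells, whose antigen receptor signals through this enzyme, had 92.7 and 107 CPM. T cells, which use Plcg1 instead, were lowest at 23.2 and 14.95 CPM.

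Inpp5d encodes SHIP1, the lipid phosphatase that opposes phosphoinositide 3-kinase. It was at 247 and 231 CPM in neutrophils, 261 and 232 CPM in platelet-carrying neutrophils and 248 and 198 CPM in B cells. Nonclassical monocytes held as much in the WT library, 245 CPM, but 158 CPM in the APP/PS1 library. In WT the difference between neutrophils and nonclassical monocytes was 0.01 on the log2 scale with an interval of -0.06 to 0.08. The same difference in APP/PS1 was 0.55 with an interval of 0.45 to 0.65. MHC class II-high monocytes had 162 and 126 CPM, classical monocytes 126 and 104 CPM, NK cells 126 and 122 CPM and T cells 84.1 and 76.2 CPM. SHIP1 transcripts thus stood highest in the neutrophil types and B cells, with nonclassical monocytes near them in WT only. Classical monocytes were no higher than NK cells.

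Cd33 encodes a sialic acid-binding receptor of the Siglec family. It was the gene most restricted to neutrophils, with 544 and 511 CPM in neutrophils and 543 and 511 CPM in platelet-carrying neutrophils. Classical monocytes had 77.1 and 63.7 CPM, MHC class II-high monocytes 41.5 and 35.4 CPM and nonclassical monocytes 19.96 and 15.3 CPM. Erythroid cells, of which 42.8% were called doublets, had 193 and 160 Cd33 UMIs, and 115 and 171 CPM without the 5 cells with most. At least 1 Cd33 UMI was found in 70.05% and 70.6% of neutrophils. After each cell was thinned to 1000 UMIs these shares were 38.8% and 39.2%. In NK cells, which should lack it, the gene was found in 51 of 425 and 100 of 764 cells, and in 3.76% and 4.19% after thinning, with median depths of 3596 and 3362 UMIs against 2520.5 and 2629 in neutrophils. If the S100a9 found in a type came with neutrophil RNA, the Cd33 that came with it would be 56.7 and 57.2 CPM in NK cells, where 53.3 and 67.9 CPM were measured, so Cd33 in NK cells was read as background. In classical monocytes the measured level was 1.90 times the level so computed in both libraries. S100a9 as the reference was chosen after the values were seen.

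Picalm encodes a clathrin assembly protein that brings clathrin to the membrane. It was at 987 and 829.6 CPM in neutrophils and 979 and 837 CPM in platelet-carrying neutrophils, which did not differ from each other in either library. Monocytes held less, at 366 and 315 CPM in classical, 343 and 269.7 CPM in MHC class II-high and 382 and 289 CPM in nonclassical cells. NK cells followed at 237 and 251 CPM, T cells at 203 and 189 CPM and B cells at 169 and 121 CPM. In nonclassical monocytes these levels were 19.98 and 19.1 times what their S100a9 would bring along from neutrophils, and in NK cells 2.30 and 2.71 times.

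Bin1 encodes amphiphysin 2, a BAR domain protein that bends membranes, and its order of types differed from that of the other endocytic genes. In mm10 it spans chr18:32377230-32435737 on the plus strand (GENCODE M21). Neutrophils had 23.8 and 31.7 CPM, among the lowest values, while NK cells had 139.7 and 127 CPM, T cells 97.5 and 119.6 CPM and B cells 89.7 and 104 CPM. Classical monocytes had 59.9 and 71.99 CPM, MHC class II-high monocytes 73.1 and 74.9 CPM and nonclassical monocytes 37.3 and 42.6 CPM. Platelet-carrying neutrophils had 106 and 129.7 CPM, 4.43-fold and 4.09-fold the level of other neutrophils. In the 16 platelets of each library Bin1 was at 1017 and 1351 CPM, the highest level of any cluster.

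Bin1 in neutrophils moved with platelet transcripts. Neutrophils without a UMI of 9 platelet markers, such as Ppbp and Pf4, had 11.6 CPM of Bin1 in 2392 WT cells and 11.3 CPM in 2670 APP/PS1 cells. With 1 to 4 such UMIs the level was 32.1 and 36.6 CPM, with 5 to 19 it was 86.6 and 101 CPM, and with 20 or more it was 215 and 219.6 CPM. The level of Bin1 was thus higher at each step in both libraries, while Picalm over the same steps went from 994 and 843 CPM to 928 and 773 CPM. The bins included the platelet-carrying clusters.

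**Figure D2:**
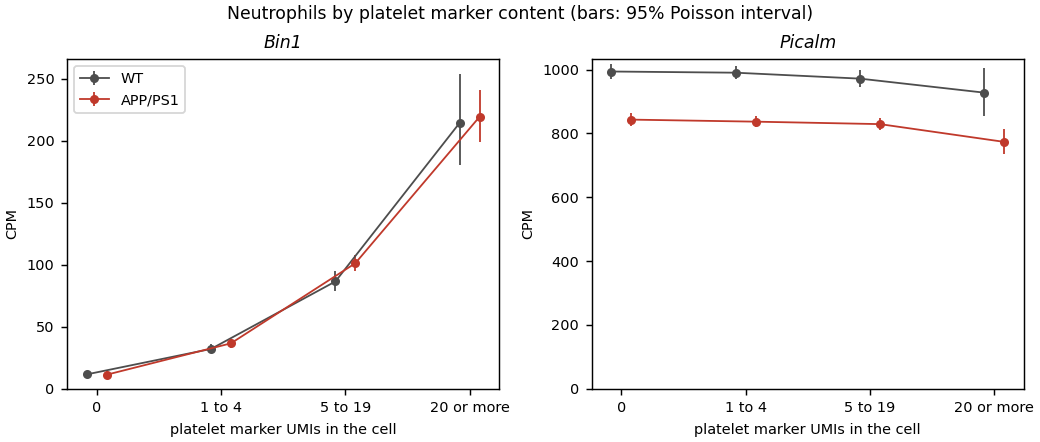
Bin1 (left) and Picalm (right) in CPM in neutrophils grouped by the number of platelet marker UMIs in the cell, for the WT (grey) and APP/PS1 (red) libraries with 95% Poisson intervals. Bin1 goes from 11.6 and 11.3 CPM with none to 215 and 219.6 CPM with 20 or more and the libraries overlap, while Picalm stays lower in APP/PS1 at every step.

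Sorl1 encodes a sorting receptor that works with retromer to return cargo from endosomes. It was at 751 and 759 CPM in neutrophils and 753 and 736 CPM in platelet-carrying neutrophils. All other types were far lower, with 220.4 and 198 CPM in classical, 173 and 131 CPM in MHC class II-high and 157 and 123 CPM in nonclassical monocytes. NK cells had 139.7 and 161 CPM, T cells 143 and 147 CPM and B cells 134 and 102 CPM, of which neutrophil RNA at the rate of S100a9 would give 56.0% and 52.8% in NK cells and 38.8% and 30.3% in B cells.

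Apoe encodes the apolipoprotein that carries lipid between cells. It was highest in nonclassical monocytes, at 2666 and 2401 CPM, and next in MHC class II-high monocytes, at 1297 and 1989.6 CPM. Classical monocytes had 827 CPM in WT, with an interval of 812 to 843, and 1724 CPM in APP/PS1, with an interval of 1697 to 1751. Nonclassical monocytes therefore exceeded classical ones by 3.22-fold in WT and by 1.39-fold in APP/PS1. B cells had 965 and 755 CPM, 7.74 and 16.4 times what monocyte RNA would bring along at the rate of the monocyte genes Ace and Fn1. Neutrophils had 195 and 172 CPM, 5.07 and 4.22 times that amount, and NK cells 64.1 and 41.5 CPM, of which it would give 69.6% and 71.6%. At this rate Apoe in NK cells was close to the level computed, and that in B cells and neutrophils stood above it. In neutrophils 55.4% and 59.5% of the Apoe UMIs lay in the 5% of cells with most. The part of single cells with monocyte RNA in these levels was not tested. T cells had 126 and 43.4 CPM, and in WT 140 of the 217 Apoe UMIs of T cells came from 5 cells, without which the levels were 45.9 and 28.4 CPM.

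Abca7 encodes a lipid transporter of the ABC family. It was at 83.1 and 73.6 CPM in neutrophils, 80.3 and 73.7 CPM in classical and 68.2 and 62.5 CPM in nonclassical monocytes. NK cells had 38.96 and 52.3 CPM, T cells 38.9 and 36.2 CPM and B cells 33.3 and 20.2 CPM. Neutrophils, platelet-carrying neutrophils and classical monocytes did not differ between neighbours beyond counting error.

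Abi3 encodes a subunit of the WAVE complex, which starts branched actin. It fell off steeply from nonclassical monocytes, at 242 and 271 CPM, through MHC class II-high monocytes, at 129.98 and 147 CPM, to classical monocytes, at 68.9 and 67.9 CPM. B cells had 27.9 and 16.95 CPM, NK cells 17.98 and 19.7 CPM and neutrophils 13.8 and 18.1 CPM. Ptk2b encodes PYK2, a calcium-sensitive kinase of adhesion sites, and showed the same top type. It was at 324 and 290.3 CPM in nonclassical monocytes, 133 and 148 CPM in MHC class II-high monocytes and 139.8 and 126 CPM in neutrophils. NK cells had 124 and 134 CPM, T cells 93.4 and 85.4 CPM, classical monocytes 83.5 and 85.8 CPM and B cells 85.4 and 53.04 CPM.

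Over the 18 profiles made of 9 types in 2 libraries, Pearson's r of log2(CPM + 1) is given as a description, since types of 1 library share its depth and background RNA. Picalm and Sorl1 had r = 0.94, Sorl1 and Cd33 r = 0.94, and Apoe and Abi3 r = 0.84, while Abi3 and Cd33 had r = -0.60. Among 8907 genes, the profiles most like each were those of Ndel1 for Picalm (0.99), Fbxl5 for Sorl1 (0.99), Lrg1 for Cd33 (0.99), Gm6377 and Cybb for Apoe (both 0.97), Grk3 for Abi3 (0.97) and Lair1 for Ptk2b (0.94). For the other genes they were Stx7 for Plcg2 (0.94), Baz2b for Inpp5d (0.94), Csrp1 for Bin1 (0.95) and Fis1 for Abca7 (0.96).

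In GENCODE M21 coordinates of mm10 (Bin1 is given above), Plcg2 spans chr8:117498291-117635142 on the plus strand, Inpp5d chr1:87620312-87720507 (plus), Picalm chr7:90130213-90213465 (plus) and Sorl1 chr9:41964720-42124297 (minus). Apoe spans chr7:19696109-19699188 (minus), Abi3 chr11:95830074-95842476 (minus), Ptk2b chr14:66153257-66281052 (minus), Cd33 chr7:43524216-43544428 (minus) and Abca7 chr10:79996494-80015572 (plus). All 10 are protein-coding genes, and Picalm, Apoe and Cd33 share chromosome 7.

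RefSeq promoter windows were found for 7 of the 10 genes, 10 windows in all, and none for Bin1, Abi3 and Ptk2b. The 250 bases before the start were searched on both strands for GAGGAA, the core bound by the myeloid factor PU.1, and for TTNNGNAA, a loose form of the site of C/EBP factors, and a run of letters can match both. GAGGAA was found in 5 windows of 4 genes and in 23.3% of the 32851 windows of all genes, and TTNNGNAA in 3 windows, of Plcg2, Sorl1 and Abca7, against 36.8% of all. The first window of each of the 4 genes with GAGGAA is shown. They are Picalm, Inpp5d and Cd33, highest in the neutrophil types, and Apoe, highest in nonclassical monocytes. Sorl1, also highest in the neutrophil types, had no GAGGAA in either of its windows, and a link between matches and cell type was not tested. Each is written 5′ to 3′ on the strand of its gene, from RefSeq GRCm38.p6, with matches to GAGGAA on either strand in capitals.
Picalm, chr7:90129963-90130212, plus strand: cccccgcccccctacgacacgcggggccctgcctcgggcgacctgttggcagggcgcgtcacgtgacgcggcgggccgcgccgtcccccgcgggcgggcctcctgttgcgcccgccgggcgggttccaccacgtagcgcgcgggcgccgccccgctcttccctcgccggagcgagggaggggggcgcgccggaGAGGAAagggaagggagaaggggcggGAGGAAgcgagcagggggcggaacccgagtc
Inpp5d, chr1:87620062-87620311, plus strand: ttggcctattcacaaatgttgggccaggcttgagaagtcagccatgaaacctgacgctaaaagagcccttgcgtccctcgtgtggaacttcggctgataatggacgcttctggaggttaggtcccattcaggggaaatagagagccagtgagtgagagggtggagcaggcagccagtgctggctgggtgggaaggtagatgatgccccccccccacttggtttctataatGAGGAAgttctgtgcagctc
Cd33, chr7:43533172-43533421, minus strand: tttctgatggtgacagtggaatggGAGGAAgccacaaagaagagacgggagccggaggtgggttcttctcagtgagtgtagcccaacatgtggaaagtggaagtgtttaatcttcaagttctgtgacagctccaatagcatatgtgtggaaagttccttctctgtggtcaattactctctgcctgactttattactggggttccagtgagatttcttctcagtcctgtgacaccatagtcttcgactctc
Apoe, chr7:19699189-19699438, minus strand: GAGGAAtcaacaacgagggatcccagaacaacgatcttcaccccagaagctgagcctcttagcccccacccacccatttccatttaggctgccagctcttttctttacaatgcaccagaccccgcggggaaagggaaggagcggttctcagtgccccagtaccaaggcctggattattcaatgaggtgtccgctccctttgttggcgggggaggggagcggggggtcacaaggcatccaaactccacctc
The matches start 57 and 31 bases before the start of Picalm, 20 before that of Inpp5d, 226 before the RefSeq start used for Cd33 and 250 before that of Apoe. The Cd33 window lies inside the GENCODE span of the gene, so it precedes a start other than the outermost one. The remaining window with a match, for another start of Apoe (chr7:19698399-19698648), has it 132 bases before that start and is not shown. A match is a run of letters, and binding was not measured here.

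Neutrophils were clustered again with the libraries aligned, which gave 6 clusters. Cluster 0 was high in Retnlg and Stfa genes, with 3442 WT and 3896 APP/PS1 cells, cluster 1 carried platelet genes, cluster 2 interferon-induced genes such as Ifit3, cluster 3 Clec4n, Dusp2 and Ccrl2 with low Retnlg, in 965 and 1584 cells, and cluster 4 the secondary granule genes Camp, Ngp and Ltf of immature neutrophils, with 161 and 220 cells. Cluster 5, led by mitochondrial and monocyte genes, was left unnamed. The 10 genes had been left out of the features clustered, and 7 of the 10 were lowest in cluster 4 among the clusters in both libraries. Picalm in cluster 4 was at 402 and 243 CPM against 973 and 839 CPM in cluster 0, a log2 ratio of -1.27 and -1.79. Inpp5d was at 93.8 and 97.04 CPM against 231 and 216 CPM. Apoe was at 50.4 and 40.3 CPM against 185 and 159 CPM. In both libraries these 3 genes were thus more than 1 log2 unit lower in cluster 4 than in cluster 0. Retnlg itself was higher in cluster 4, at 25401 and 25517 CPM against 16070 and 14286 CPM.

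The others differed less in cluster 4. Sorl1 was at 492 and 477 CPM against 729 and 738 CPM, Cd33 at 453 and 405 CPM against 557 and 538 CPM, and Ptk2b at 83.2 and 56.1 CPM against 130.1 and 112 CPM. Plcg2 was not lower, at 79.7 and 88.4 CPM against 76.1 and 79.7 CPM. The cells of cluster 4 were deeper, at a median of 5773 UMIs against 2587 in cluster 0, and the part of depth in these levels was not tested. In cluster 3, Abi3 was at 24.4 and 30.2 CPM against 10.9 and 13.8 CPM in cluster 0, a log2 ratio of 1.16 and 1.13. Sorl1 was at 878 and 889.8 CPM, Inpp5d at 297 and 282 CPM and Ptk2b at 173 and 153 CPM there, each above cluster 0. In cluster 1, Bin1 was at 126 and 157 CPM against 25.1 and 30.6 CPM. In cluster 2, the interferon cluster, the 10 genes lay between -0.01 and 0.49 of cluster 0 on the log2 scale in both libraries.

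**Figure D3:**
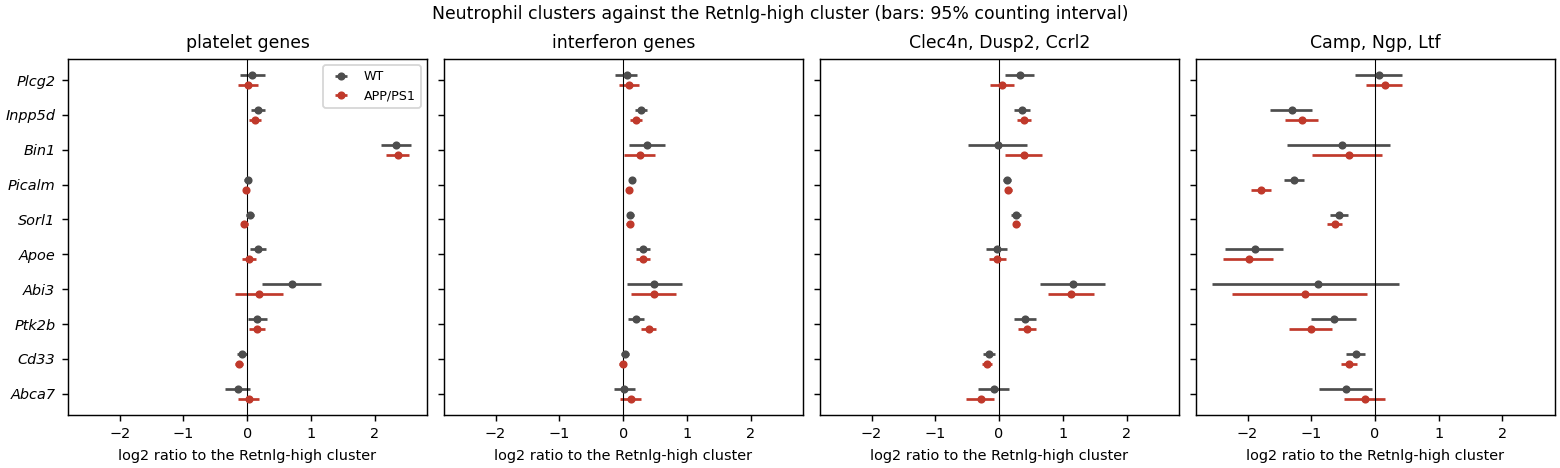
Log2 ratio of each gene in 4 neutrophil clusters to cluster 0, labelled Retnlg-high on the axis, in the WT (grey) and APP/PS1 (red) libraries. Bars are 95% counting intervals, and each panel is named by the cluster's leading genes. Retnlg itself was higher in the Camp, Ngp and Ltf cluster than in cluster 0. Picalm, Inpp5d and Apoe lie below -1 in the Camp, Ngp and Ltf cluster, Bin1 at 2.33 and 2.36 in the platelet gene cluster, and Abi3 at 1.16 and 1.13 in the Clec4n, Dusp2 and Ccrl2 cluster.

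The study asked how blood neutrophils of APP/PS1 mice differ from those of WT mice. In neutrophils, 0 of the 10 genes were past the fold, where 8.66% of the 7762 genes with enough UMIs were. Their ratios ran from -0.25 for Picalm to 0.41 for Bin1 with a median of -0.09, and the median of all genes was 0.07. Picalm was at 987 and 829.6 CPM, with an interval of the ratio of -0.28 to -0.22. Split by cluster, its ratio was -0.21, -0.24, -0.26 and -0.19 in clusters 0 to 3 and -0.73 in cluster 4, so it was lower in each. Ratios of Apoe (-0.18, interval -0.25 to -0.11), Abca7 (-0.17, -0.28 to -0.07), Ptk2b (-0.15, -0.23 to -0.06), Inpp5d (-0.10, -0.16 to -0.04) and Cd33 (-0.09, -0.13 to -0.05) were smaller. Sorl1, at 0.01 with an interval of -0.02 to 0.05, and Plcg2, at 0.06 with an interval of -0.04 to 0.17, did not differ beyond counting error.

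Bin1 and Abi3 had the highest ratios in neutrophils. Bin1 was at 23.8 and 31.7 CPM, a ratio of 0.41 with an interval of 0.23 to 0.60. In neutrophils without platelet marker UMIs the ratio was -0.050, given here without an interval. The summed level of the 9 platelet markers in neutrophils was 533 and 643 CPM, with all 9 found in both. Split by cluster, the Bin1 ratio was 0.29, 0.32, 0.17 and 0.68 in clusters 0 to 3, with an interval that spanned 0 in cluster 2 only. The platelet marker Pf4 was at -0.06, 0.03, 0.08 and -0.14 in the same clusters. The part of platelet RNA in the Bin1 ratio was not tested. Abi3 was at 13.8 and 18.1 CPM, a ratio of 0.39 with an interval of 0.14 to 0.63, and it stood at -0.17 where cells were named one by one rather than by cluster. Within clusters 0 to 3, which include platelet-carrying neutrophils, its ratio was 0.33, -0.19, 0.33 and 0.31, each with an interval that spanned 0. Cluster 3, where Abi3 was higher than in cluster 0, held 965 WT and 1584 APP/PS1 cells, and the part of this in the result was not tested. In platelet-carrying neutrophils 1 of 10 genes was past the fold, where 6.95% of all genes were. That gene was Apoe, at 211 and 148 CPM with a ratio of -0.52 and an interval of -0.63 to -0.40, and the value ran from -0.62 to -0.32 over the alternatives.

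Apoe in classical monocytes had the widest gap between the libraries in myeloid types. It went from 827 CPM in the WT library to 1724 CPM in the other, a log2 ratio of 1.06 with an interval of 1.02 to 1.09, which placed it at percentile 99.9 of all genes in these cells. It was the 1 of 10 genes past the fold there, where 5.45% of all genes were. In MHC class II-high monocytes Apoe was again the 1 gene of 10 past the fold, at 1297 and 1989.6 CPM and a ratio of 0.62 with an interval of 0.58 to 0.66, where 5.76% of all genes were. In nonclassical monocytes its ratio was -0.15 with an interval of -0.18 to -0.12. Apoe was thus higher in APP/PS1 in the monocyte types with less of it and not in the type with the most. The ratio ran from 0.88 to 1.10 in classical and from 0.38 to 1.001 in MHC class II-high monocytes over the alternatives. The MHC class II-high type, which can include dendritic cells, held 1450 cells here, 436 at resolution 0.6 and 667 with called doublets removed.

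The gap in classical monocytes was spread over many cells. After thinning to 1000 UMIs, 60.1% of WT and 44.8% of APP/PS1 classical monocytes had 0 Apoe UMIs, and 3.97% and 11.2% had 5 or more. The share with a UMI was 39.9% and 55.2%, or 76.1% and 79.5% before thinning, at median depths of 8259.5 and 7798 UMIs. In NK cells, which should lack the gene, it was 3.29% and 2.36% after thinning. Without the 5 cells highest in Apoe the levels in classical monocytes were 796 and 1669 CPM. The 11 nonclassical monocyte markers, which would accompany cells of that type, summed to 1480.0 and 1422 CPM in classical monocytes. Macrophage markers summed to 104 and 96.0 CPM, with 5 and 4 of 8 genes found. The 8 immature neutrophil markers, which include Chil3, a gene classical monocytes also use, summed to 1163 and 2202 CPM, and the 9 platelet markers to 899 and 1198 CPM, and their part in the result was not tested. Classical monocytes made up 11.6% and 7.75% of kept cells.

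**Figure D4:**
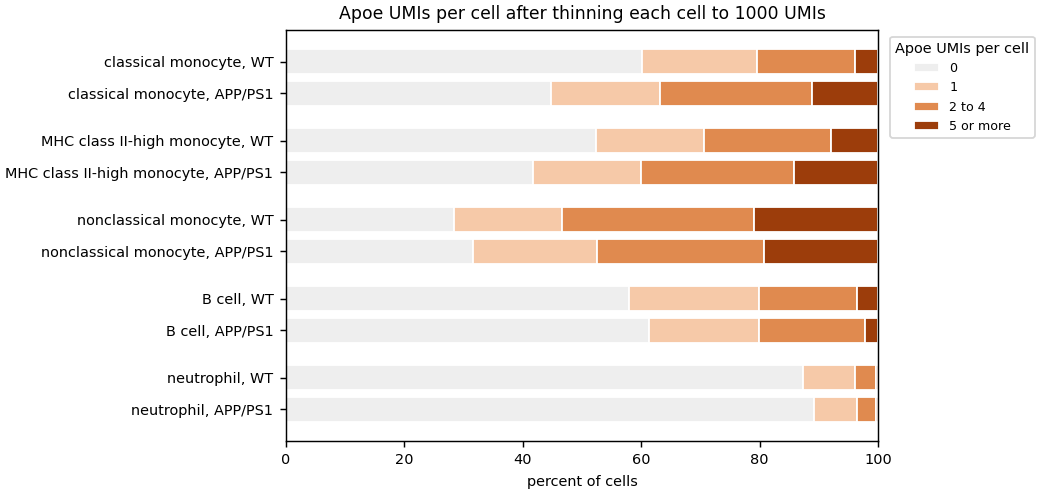
Percent of cells with 0, 1, 2 to 4 and 5 or more Apoe UMIs after each cell was thinned to 1000 UMIs, in 5 types of the WT and APP/PS1 libraries. Cells with none make up 60.1% of WT and 44.8% of APP/PS1 classical monocytes, and 28.4% and 31.6% of nonclassical monocytes.

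Inpp5d was past the fold in nonclassical monocytes, the 1 of 10 genes there, where 5.56% of all genes were. It was at 245 CPM in WT, with an interval of 236 to 255, and at 158 CPM in APP/PS1, with an interval of 148 to 168. The ratio was -0.64 with an interval of -0.74 to -0.53, at percentile 1.89 of all genes, and it ran from -0.66 to -0.58 over the alternatives. The share of nonclassical monocytes with an Inpp5d UMI after thinning was 21.8% and 14.4%. In classical monocytes its ratio was -0.28 with an interval of -0.39 to -0.16, and in MHC class II-high monocytes -0.36 with an interval of -0.51 to -0.21. Inpp5d was lower in APP/PS1 in 8 of the 9 types, counting types by the sign of the ratio alone.

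Picalm and Sorl1 were also lower in monocytes of APP/PS1. In nonclassical monocytes the ratio was -0.40 for Picalm, with an interval of -0.49 to -0.32, and -0.36 for Sorl1, with an interval of -0.48 to -0.23. In MHC class II-high monocytes it was -0.35 and -0.40. In classical monocytes it was -0.22 and -0.15. Picalm was lower in 7 of the 9 types and Bin1 higher in 7 of 8, and neither was past the fold in any of these. Cd33 was at -0.28 in classical and -0.39 in nonclassical monocytes, where its level was 1.90 and 1.89 times in WT, and 1.90 and 1.64 times in APP/PS1, what neutrophil RNA would bring along. With called doublets removed these ratios turned to 0.024 and 0.25. The ratios of Plcg2, Abi3, Ptk2b and Abca7 in the 3 monocyte types lay between -0.16 and 0.18.

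**Figure D5:**
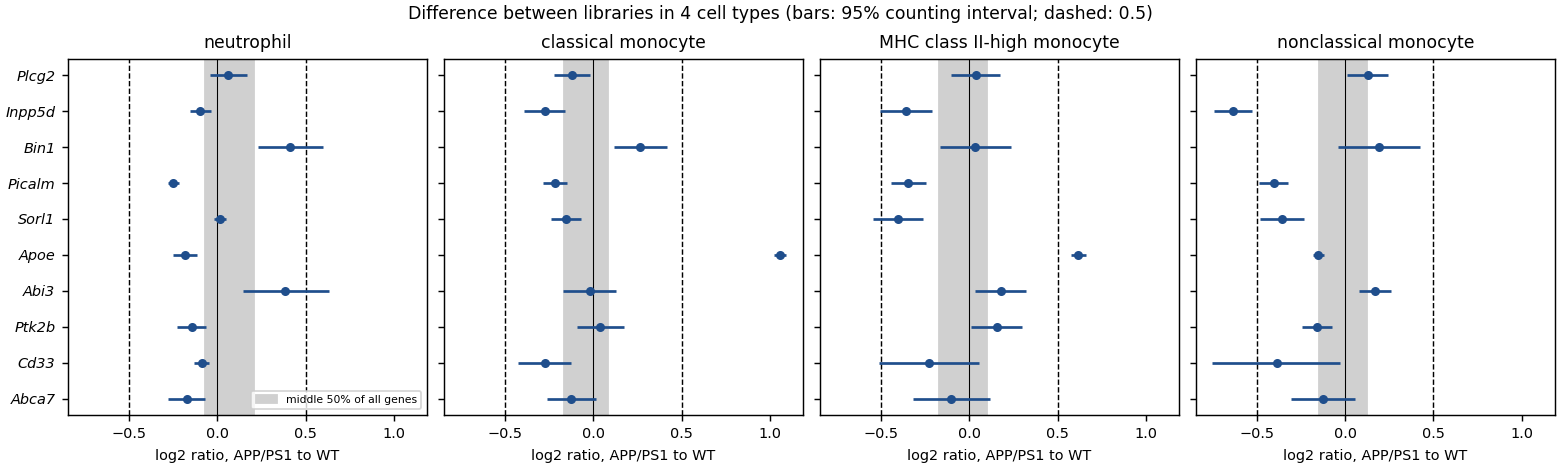
Log2 ratio of APP/PS1 to WT for the 10 genes in neutrophils and 3 monocyte types, with 95% counting intervals, the middle 50% of all genes in grey and dashed lines at 0.5 in either direction. Apoe lies at 1.06 in classical and 0.62 in MHC class II-high monocytes, Inpp5d at -0.64 in nonclassical monocytes, and no gene is past the dashed lines in neutrophils.

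Apoe was lower in APP/PS1 in each lymphocyte type. In B cells, where its level stood above that computed from Ace and Fn1, its ratio was -0.35 with an interval of -0.46 to -0.25. In NK cells it was at 64.1 and 41.5 CPM, a ratio of -0.63 with an interval of -1.01 to -0.24, and 1 of 9 genes was past the fold where 5.48% of all genes were. In T cells the ratio was -1.54 with an interval of -1.91 to -1.18, and 1 of 8 genes was past the fold where 8.06% of all genes were. Monocyte RNA at the rate of Ace and Fn1 would give 57.9% of the Apoe of T cells in WT and 103% in APP/PS1. The T cells were in 3 clusters, the one high in Cd8b1 and Ccl5 with 174 and 333 cells, one high in Lef1 with 122 and 104 cells and one high in Trdc with 89 and 75 cells. In WT, Apoe was at 72.1, 145 and 174 CPM in these clusters, and in APP/PS1 at 42.3, 47.05 and 41.9 CPM. Over the alternatives the ratio ran from -0.84 to -0.18 in NK cells and from -1.61 to -0.69 in T cells. The level of Ace, itself part of that computation, was 9.59 and 4.85 CPM in NK cells and 13.9 and 8.68 CPM in T cells. These are low levels given without intervals. The Apoe computed from Ace and Fn1 was 44.7 and 29.8 CPM in NK cells. In T cells it was 72.9 and 44.9 CPM, where 126 and 43.4 CPM were measured. The part of monocyte RNA in these ratios was not tested. In B cells 1 of 8 genes was past the fold, where 9.63% of all genes were. It was Ptk2b, at 85.4 and 53.04 CPM with a ratio of -0.69 and an interval of -1.08 to -0.30, and Picalm was at -0.48 with an interval of -0.74 to -0.22. In erythroid cells Cd33 was at 0.65 and Ptk2b at 0.58, 2 of 6 genes, where 43.9% of all genes were past the fold and the median of all genes was 0.43. Of the cells in the erythroid cluster 42.8% were called doublets. Over the alternatives the ratio there ran from 0.15 to 0.70 for Cd33 and from 0.09 to 1.79 for Ptk2b.

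Other genes of the same pathways moved about as little in neutrophils. The lists were chosen with earlier results of these data known, and their counts are read against the shares of all genes, 5.42% past the fold upward and 3.23% downward. Of 25 genes of ITAM and phosphoinositide signalling with enough UMIs, 0 were past the fold upward and 2 downward, Lat2 (-0.81), an adaptor, and Pik3ap1 (-0.54), which couples receptors to phosphoinositide 3-kinase. The median was 0.03. Of 28 endocytic genes 0 were past the fold, from the clathrin heavy chain Cltc (-0.26) to Snx1 (0.35), with a median of 0.08. Of 20 lipid transport genes 1 was higher, the lipid droplet gene Plin2, and 1 lower, the receptor Lrp1 (-0.55), with a median of -0.05. Of 22 WAVE and adhesion genes 0 were past the fold upward, with Git2 highest at 0.23 and a median of 0.02. Of 9 genes for sialic acid receptors and their partners 0 were past the fold, from the phosphatase Ptpn6 (-0.04) to Siglecf (0.47), with a median of 0.08.

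In monocytes the lipid list is given too, with genes other than Apoc1 named after their values were seen. Apoc1, the next gene on the chromosome at 3.45 kb and an apolipoprotein too, was at 16.3 and 28.7 CPM in classical monocytes, a ratio of 0.82 with an interval of 0.55 to 1.08, the 1 of 22 genes past the fold, where 5.45% of all genes were. In neutrophils the ratio of Apoc1 was -0.06. In MHC class II-high monocytes, where 5.76% of all genes were past the fold, 3 of 22 were higher and 1 lower, among them Nr1h3, which encodes the sterol-sensing receptor LXR alpha, at 0.89, and the cholesterol exporter Abcg1, at -0.63. In nonclassical monocytes Nr1h3 was at 0.54 and the lipase gene Lpl at -1.07, from 50.8 to 24.2 CPM.

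The genes on each side of the 10 on the chromosome gave ratios in neutrophils from -0.39 for Bcl3, after Apoe, to 0.67 for Crebzf, after Picalm. Clu, itself near a human risk locus, lies 172 kb before Ptk2b and was at 23.1 and 30.8 CPM with a ratio of 0.41. It was also among the leading genes of a platelet-carrying neutrophil cluster of 3583 cells. The part of platelet RNA in its level and ratio was not tested. Gm39321, 17.7 kb after Sorl1, was at 0.42, while Sorl1 was at 0.01. Cnn2 lies 0.432 kb before Abca7 at -0.03, and Arhgap45 1.08 kb after it at 0.09.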

How the data were processed

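The authors deposited raw UMI counts of 3′ libraries (10x Genomics v3), which their notes credit to Cell Ranger 5.0.0 and mm10, and did not normalize them. Within each library, cells below percentile 5 or above percentile 95 in genes or in UMIs, or with over 10% mitochondrial UMIs, were removed. These limits are those of the study's methods, and taking them within each library was a choice made here. The library totals were 92458623 UMIs (WT) and 84870864 UMIs (APP/PS1). Cells were log-normalized to 10000 UMIs and clustered in Seurat 5.3.0 (2000 variable features, 15 components, resolution 1), without the 10 genes among the features, and clusters were named by markers under a rule set after a first trial had been seen. Clusters with over 50% called doublets were left out as mixed. Scrublet (scanpy 1.11.5) marked doublets, which were kept. They made up 7.61% and 5.81% of kept cells at the WT threshold of 0.217, used for both because the automatic APP/PS1 threshold was 0.728. Neutrophils were clustered again with anchors between libraries (resolution 0.3). Intervals were exact Poisson for CPM, exact conditional for ratios and Clopper-Pearson for shares. Those for ratios were run on simulated Poisson counts, the model they assume, so this check cannot cover UMIs that gather in a few cells. TMM sizes came from edgeR 4.0.16. Coordinates are GENCODE M21. Named were the 10 genes, their 3 closest profiles (the first given), chromosome neighbours and the highest and lowest of each list (some are not reported here), and other list genes were named after their values were seen. The members, lists and alternatives were chosen with earlier results of these data known.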

Additional observations from a re-analysis of the deposited data

Results flagged for a closer look

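The ratio of Apoe between the APP/PS1 and WT libraries took opposite signs in different cell types, each beyond 0.5 on the log2 scale. It was 1.06 in classical monocytes and 0.62 in MHC class II-high monocytes, and -0.52 in platelet-carrying neutrophils, -0.63 in NK cells and -1.54 in T cells. For Ptk2b the ratio was 0.58 in erythroid cells and -0.69 in B cells. With 1 library per genotype the difference between types was not tested. In T cells 140 of the 217 WT Apoe UMIs came from 5 cells. In erythroid cells the median of all genes was 0.43, and 42.8% of the cells were called doublets.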

How the results depend on the processing

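Of 1053 single ratios, 81 ratios under 13 alternatives, 936 stayed within the counting interval of the value reported, 101 left it and 16, of ratios whose interval excluded 0, changed sign. Another 50 values changed sign where the interval spanned 0, and they are counted within the 936 and 101. The median ratio in neutrophils, -0.09, was -0.15 both with cells named one by one and with TMM sizes. The count past the fold in neutrophils, 0, was 1 with cells named one by one (Apoe, -0.51) and 1 after thinning (Abi3, 0.57). The 5 genes highest in the same type in both libraries became 9 with no percentile limits, 8 without doublets and 8 with 30 components. The 9 gene and type pairs past the fold outside neutrophils became 4 with no percentile limits and 15 with no minimum of UMIs. The causes were not tested.

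The sign changes given here are those of ratios whose interval excluded 0. With no percentile limits the ratio changed sign for Abi3 (-0.086) and Ptk2b (-0.0072) in MHC class II-high monocytes and for Picalm in erythroid cells (-0.33). Without doublets it did so for Cd33 in classical (0.024) and nonclassical (0.25) and Abi3 in MHC class II-high monocytes (-0.039), and at resolution 0.6 for that Abi3 value (-0.45). With cells named one by one it did so for Abi3 in neutrophils (-0.17) and Cd33 in nonclassical monocytes (0.041). In erythroid cells Picalm and Sorl1 turned to -0.15 and -0.082 with TMM sizes and to -0.077 and -0.0059 without abundant gene classes. After thinning Cd33 turned in classical (0.038) and Plcg2 in nonclassical monocytes (-0.13). In neutrophils without platelet marker UMIs, an alternative chosen after seeing the data, Bin1 turned to -0.050. No paired analysis was possible because each genotype had 1 library. Depth limits rare types, where a gene can rest on under 100 UMIs.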

Other observations

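Of 50 other genes near Alzheimer risk loci that the files hold, 28 had enough UMIs in neutrophils, where 0 were past the fold upward and 2 downward, beside 5.42% and 3.23% of all genes, with a median ratio of -0.05. Those were the protease Adam17, at 47.1 and 31.1 CPM (WT first, -0.60, interval -0.75 to -0.44), and the GTPase Rhoh, at 53.2 and 37.6 CPM (-0.50, interval -0.64 to -0.36). Clu, also a leading gene of a platelet-carrying neutrophil cluster, was highest at 0.41. Cass4, a docking protein of adhesion sites, was lowest of the list in 3 monocyte types, at -0.75 in classical, -0.71 in MHC class II-high and -0.58 in nonclassical monocytes, and at -0.23 in neutrophils. Spi1, which encodes PU.1, was at 1120.1 and 1048 CPM in neutrophils (-0.10) and at 985 and 883 CPM in nonclassical monocytes (-0.16). Trem2, the myeloid receptor of the risk list, was at 60.3 and 45.2 CPM in classical monocytes (-0.42), and in neutrophils it had 26 and 25 UMIs. Genes other than Adam17 and Clu were named after their values were seen.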
